A study of Mus musculus with 6 samples.

Results

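The mitochondrial genome of the mouse encodes 37 genes whose symbols begin with mt-, and all 37 were found among the 53762 gene symbols of the count tables. They were taken by that prefix alone, so no measured value chose them. They comprise 13 genes for proteins of the respiratory chain, 2 rRNA genes and 22 tRNA genes. RNA had been sequenced from immortalized mouse embryonic fibroblasts (MEFs), which are connective tissue cells grown from embryos. The KO group was PME-1 knockout by its sample titles, with 3 libraries, and the WT group wild type, also with 3 libraries. The genotype entries of KO 2 and KO 3, however, name PME-2 and PME-3 knockouts. PME-1 is a methylesterase, encoded by Ppme1, that demethylates the C subunit of protein phosphatase 2A. Both groups grew in high glucose DMEM with fetal bovine serum and were harvested 24 hours after seeding. The labels do not give the embryos' age or strain, the way of immortalization or knockout, or whether the 3 libraries of a group are separate clones or cultures, so the p-values measure the spread between these libraries, which may be technical.

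Mitochondrial DNA is transcribed from both strands into long precursors, which are cut into mRNAs, rRNAs and tRNAs, the tRNAs lying between most of the other genes and marking many of the cleavage sites. The strand known as heavy gives most products, whereas the light strand gives the mRNA of mt-Nd6 and a minority of the tRNAs. The mRNAs encode subunits of NADH dehydrogenase (complex I), the cytochrome bc1 complex (complex III), cytochrome c oxidase (complex IV) and ATP synthase (complex V), while the enzymes that copy, transcribe, cut and translate these transcripts are encoded in the nucleus.

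In the annotation used here (GENCODE M21, build GRCm38), 12 protein genes, both rRNA genes and 14 tRNA genes lie on the plus strand, and mt-Nd6 and 8 tRNA genes on the minus strand. The first set of sequences shows how closely annotated nuclear copies match some of the protein genes. A run of 7 annotated pseudogenes on the minus strand of chromosome 1, at chr1:24611535-24616197, copies part of the mitochondrial genome with at most 1 mismatch a gene. The capital letter marks the only base at which the aligned parts of mt-Co1 and its copy Gm29216 differ, written A1066T, and of mt-Nd3 and its copy Gm28438, written T3C, where the first letter is the mitochondrial base, the number is the position from the first base of the mitochondrial gene and the last letter is the copy's base.
mt-Co1: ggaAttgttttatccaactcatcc
Gm29216: ggaTttgttttatccaactcatcc
mt-Nd3: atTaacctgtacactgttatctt
Gm28438: atCaacctgtacactgttatctt
The second set shows the 43 bases that belong to both mt-Atp8 and mt-Atp6, with the start codon of mt-Atp6 in capitals, so that a read there cannot be given to either gene alone.
mt-Atp6: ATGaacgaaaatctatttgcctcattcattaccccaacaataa
The third set gives the 3 tRNA genes with the most counts, which border an mRNA or rRNA gene, with the anticodon in capitals.
mt-Te: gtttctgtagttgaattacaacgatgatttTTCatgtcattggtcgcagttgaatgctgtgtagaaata
mt-Ts1: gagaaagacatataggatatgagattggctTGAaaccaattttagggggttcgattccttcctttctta
mt-Tl1: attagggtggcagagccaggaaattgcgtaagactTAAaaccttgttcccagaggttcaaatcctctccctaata

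The libraries held 34450993 to 43000426 counts in KO and 38155189 to 44116310 in WT. Values below are counts per 1000000 counts of the library (CPM), scaled by the trimmed mean of M-values (TMM) unless another scale is named. Ppme1 itself (chr7:100326737-100372307, minus strand) had 18.2, 14.9 and 18.9 CPM in KO and 78.4, 80.6 and 86.6 CPM in WT, a log2 fold change of -2.24 (edgeR adjusted p = 0.000564), so the libraries matched their titles. KO 1 and WT 1 stood apart from the other libraries of their groups. Chi-square per degree of freedom over all genes was 118 and 137 between KO 1 and the other KO libraries and 115 and 128 between WT 1 and the other WT libraries, against 13.1 between KO 2 and KO 3 and 12.7 between WT 2 and WT 3. The collagen gene Col3a1, for example, had 2760, 797 and 823 CPM in KO and 525, 3538 and 3374 CPM in WT, with KO 1 near WT 2 and WT 3 and with WT 1 nearest to KO 2 and KO 3. The main results are therefore also given without KO 1 and WT 1. Of the fibroblast markers 14 of 15 were tested, 4 were lower in KO and 0 higher (3.86% of all tested genes were lower and 3.55% higher), with summed levels of 14640 to 17070 CPM in KO and 18590 to 25170 CPM in WT. Not all markers were lower in KO. Thy1 averaged 6.51 CPM in KO and 2.3 CPM in WT, and Dcn 30.3 CPM in KO and 6.56 CPM in WT. Both were uncalled, with every KO library above every WT library. Epithelial markers summed to 127 to 147 CPM in KO and 8.92 to 31.9 CPM in WT, and 2 of 7 tested, Krt8 and Krt18, were higher in KO. Most of the KO sum was Krt18 and Krt19, with means of 75.4 and 53.3 CPM in KO. Epcam averaged 0.675 CPM in KO and 0.641 CPM in WT, and Cdh1 0.103 CPM in KO and 0.267 CPM in WT. These 2 genes, Krt19 and Cldn7 overlapped between the groups, and Cldn4 was uncalled but higher in every KO library. Of the endothelial markers 2 were tested and Tek was higher in KO, with 2.33, 1.24 and 1.06 CPM in KO and 0.277, 0.139 and 0.161 CPM in WT (edgeR adjusted p = 0.0241). Summed markers of endothelial cells (0.877 to 3.44 CPM), blood cells (7.64 to 10.2 CPM) and muscle (0.264 to 1.16 CPM) were low in all 6 libraries, and Adgre1, Cd3e, Itgam, Tie1, Emcn, Krt5, Krt14, Myod1 and Myog had 0 counts in each. The part of these other genes in the results below was not tested.

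Most of the copies on chromosome 1 carried nearly as many counts as the mitochondrial genes they match. Gm28661 matched mt-Co2 at 100% over 681 bases and had 0.99 to 0.996 times its counts. Gm28437 matched mt-Co3 at 100% over 783 bases, with 0.993 to 0.997 times its counts, and Gm10222 matched mt-Nd4l at 100% over 294 bases, with 0.986 to 0.998 times its counts. Gm10925 matched mt-Atp6 over 678 bases and exceeded it slightly, at 1.039 to 1.044 times its counts. These pairs thus held almost the same number in every library. Gm28438, with its 1 mismatch to mt-Nd3 over 345 bases, had 0.94 to 0.989 times the counts of mt-Nd3. The copies that match only part of a gene had fewer, 0.379 to 0.42 times those of mt-Nd4 for Gm28439 (876 bases) and 0.127 to 0.135 times those of mt-Co1 for Gm29216 (483 bases). An eighth copy, Gm13340 on chromosome 2, matches the whole of mt-Co1 at 97.6% over 1545 bases with 37 mismatches, and averaged only 31.8 counts a library. Together the copies took 0.275%, 0.194% and 0.262% of all counts in KO and 0.303%, 0.192% and 0.215% in WT. How reads that match both places were counted is not given in the sources used here. Counts on the copies can therefore not be read as transcripts of the copies themselves, and levels of these 7 mitochondrial genes are uncertain.

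**Figure D1:**
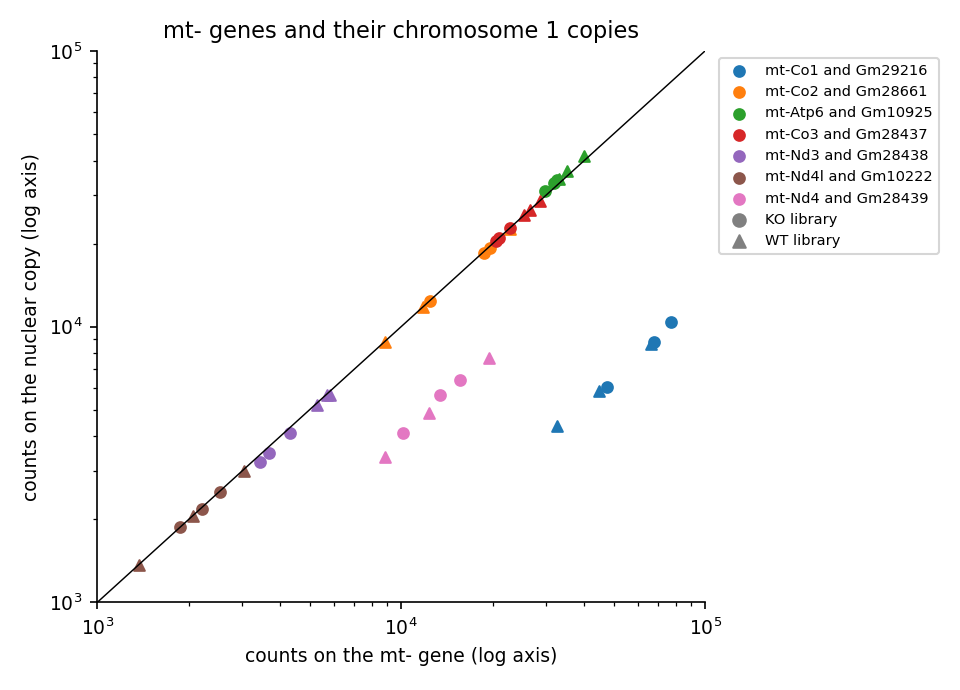
Counts on each of 7 mitochondrial genes (x axis, log) against counts on its copy on chromosome 1 (y axis, log), 1 point a library, circles for KO and triangles for WT, with the line of equal counts. Points of mt-Co2, mt-Co3, mt-Nd4l and mt-Atp6 lie along the line in all 6 libraries, and those of mt-Nd4 and mt-Co1 lie below it.

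The share of all counts that fell on the 37 genes did not separate the genotypes. It was 0.811%, 0.540% and 0.809% in KO, against 0.962%, 0.499% and 0.574% in WT. WT 1 was the highest library and WT 2 the lowest, so the KO libraries lay within the WT range. The means were 0.720% ± 0.156 in KO and 0.678% ± 0.248 in WT (SD, n = 3 each), a difference of 0.0414 percentage points (two-sided exact permutation test, p = 0.90, where 0.10 is the smallest p that 3 against 3 can give). Counting error was small beside this spread, with a 95% exact binomial interval of 0.808% to 0.814% in KO 1 and 0.497% to 0.501% in WT 2, which covers counting error only. Without KO 1 and WT 1 the difference was 0.138 percentage points, and without WT 2 alone it turned to -0.048. In these bulk cultures, fewer cells with a transcript and less of it per cell cannot be told apart.

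Among other transcripts, the cytoplasmic 18S rRNA symbol Rn18s had 1583, 1464 and 1697 CPM in KO and 2006, 1466 and 1528 CPM in WT. Like the mitochondrial share, it was highest in WT 1. The nuclear RNA Malat1 had 150, 217 and 147 CPM in KO and 154, 86.1 and 90.7 CPM in WT. KO 2 was its highest library, and the other libraries followed the order of the mitochondrial share. The list of RNA quality indicators that holds both summed to 1947, 1877 and 2019 CPM in KO and 2328, 1693 and 1755 CPM in WT, and 0 of its 6 tested genes were called. Neat1, another nuclear RNA of this list, had 210, 193 and 173 CPM in KO and 163, 139.5 and 134 CPM in WT (edgeR adjusted p = 0.122). Its groups did not overlap, as for 30% of all tested genes. Their part in the mitochondrial share was not tested.

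By class, the protein genes took 0.775%, 0.508% and 0.761% of all counts in KO, against 0.919%, 0.478% and 0.551% in WT, and so nearly the whole of the mitochondrial share. The rRNA genes took 0.0298%, 0.0285% and 0.0429% in KO, against 0.0369%, 0.0184% and 0.0197% in WT. The tRNA genes took 0.00552%, 0.00366% and 0.00518% in KO, against 0.00615%, 0.00271% and 0.00317% in WT. All 3 classes overlapped between the genotypes. As part of the mitochondrial counts the rRNA genes made up 3.67%, 5.27% and 5.31% in KO, against 3.84%, 3.70% and 3.43% in WT. KO 2 and KO 3 were above every WT library and KO 1 was within the WT range. The difference was 1.095 percentage points, and 1.73 without KO 1 and WT 1. Its exact permutation p was 0.30, where 0.10 is the smallest that 3 against 3 can give (Benjamini-Hochberg adjusted p = 0.48 over the 8 per-library measures tested).

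**Figure D2:**
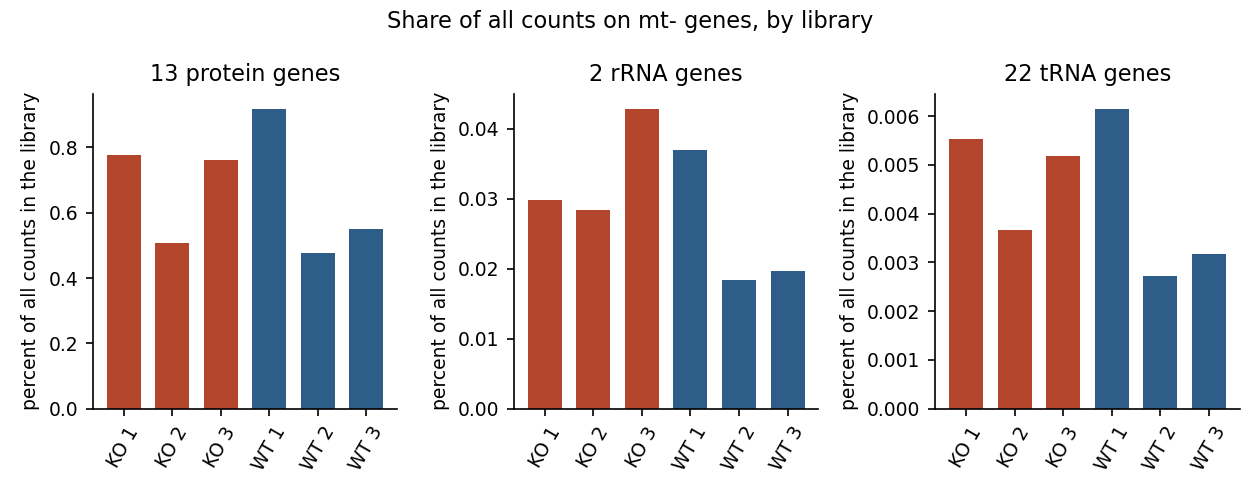
Percent of all counts in each library on the 13 protein genes, the 2 rRNA genes and the 22 tRNA genes, with KO bars in red and WT bars in blue and a separate y axis for each class. WT 1 has the highest bar for protein and tRNA genes and KO 3 the highest for rRNA genes, and the groups overlap in every class.

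Gene by gene, 33 of the 37 had enough counts for edgeR's quasi-likelihood test, and 0 of them passed an adjusted p of 0.05, where 7.4% of all 15223 tested genes did (3.55% higher and 3.86% lower in KO). At an unadjusted p below 0.05 there was 1, mt-Nd3, against 22.2% of all tested genes. It was also the 1 gene of 33 whose CPM did not overlap between the groups, against 30% of all tested genes (14.6% higher and 15.4% lower in KO). DESeq2 called mt-Nd3 only (15.8% of all tested genes called) and limma-voom called 0 (7.74%). By the sign of the estimate 19 were above 0 and 14 below. The median log2 fold change was -0.13 over the 13 protein genes, 0.38 over the 2 rRNA genes and 0.32 over the 18 tested tRNA genes, against 0.011 over all tested genes. Without KO 1 and WT 1 the median of the protein genes was 0.19.

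**Figure D3:**
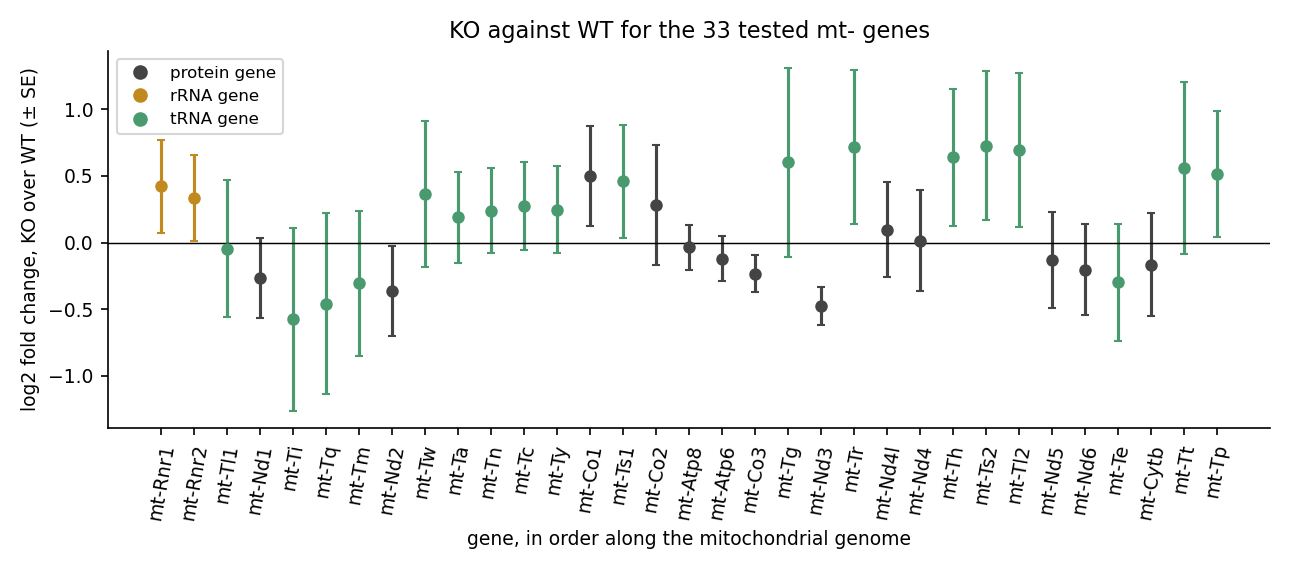
Log2 fold change of KO over WT (y axis) for the 33 tested genes in their order along the mitochondrial genome (x axis), with bars of 1 standard error and colours for the 3 classes. The estimate of mt-Nd3 lies more than 3 standard errors below 0, at -0.48, whereas 0 of the 33 passed the adjusted test.

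The rRNA genes encode the RNAs of the small and large subunits of the mitochondrial ribosome. mt-Rnr1 (chrM:70-1024, plus strand), the small subunit rRNA, had 88.1, 93.2 and 142 CPM in KO and 125, 58.8 and 57.8 CPM in WT, a log2 fold change of 0.42 ± 0.35 (SE; edgeR adjusted p = 0.544). mt-Rnr2 (chrM:1094-2675, plus strand), the large subunit rRNA, had 185, 194 and 292 CPM in KO and 265, 125 and 142 CPM in WT, a log2 fold change of 0.33 ± 0.32 (SE; edgeR adjusted p = 0.611). For both, KO 3 and WT 1 were high and WT 2 and WT 3 low, so the groups overlapped. Without KO 1 and WT 1 the log2 fold changes were 1.011 for mt-Rnr1 and 0.86 for mt-Rnr2 (edgeR adjusted p = 0.0676 and 0.123). The ratio of mt-Rnr1 to mt-Rnr2 varied little, from 40.9 to 48.8 counts per 100 in the 6 libraries.

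Of the 7 subunits of complex I, mt-Nd3 gave the smallest p. mt-Nd3 (chrM:9459-9806, plus strand), a core membrane subunit, had 89.02, 101.3 and 107.6 CPM in KO, against 162, 131 and 121 CPM in WT. Every KO library was below every WT library. Its means were 99.3 ± 9.4 CPM in KO and 138 ± 21 CPM in WT (SD, n = 3 each). The log2 fold change was -0.48 ± 0.14 (SE; edgeR adjusted p = 0.106, from an unadjusted p of 0.0132 in the same edgeR fit across all genes, and DESeq2 adjusted p = 0.0409). Its copy Gm28438, which shares its sequence but for 1 base, averaged 94.0 ± 9.3 CPM in KO and 135 ± 19 CPM in WT, with a log2 fold change of -0.52 (edgeR adjusted p = 0.0766). Reads that do not cover that base fit both genes equally. The copy had 0.94, 0.951 and 0.948 times the counts of mt-Nd3 in KO, against 0.964, 0.989 and 0.981 times in WT, lower in every KO library. Leaving out single libraries gave -0.57 to -0.34 for mt-Nd3, and without KO 1 and WT 1 it was -0.28 (edgeR adjusted p = 0.00545), in a fit that called 48% of all 15449 tested genes.

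mt-Nd1 (chrM:2751-3707, plus strand) had 833, 730.5 and 1092 CPM in KO, against 1573, 805 and 818 CPM in WT. mt-Nd2 (chrM:3914-4951, plus strand) had 329, 320 and 443 CPM in KO, against 736, 314 and 356 CPM in WT. For these core membrane subunits WT 1 was far above all other libraries, and the remaining 5 overlapped. The log2 fold changes were -0.27 ± 0.30 for mt-Nd1 (SE; edgeR adjusted p = 0.666) and -0.36 ± 0.34 for mt-Nd2 (SE; edgeR adjusted p = 0.592), and they turned to 0.17 for mt-Nd1 and 0.19 for mt-Nd2 without KO 1 and WT 1.

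mt-Nd4 (chrM:10167-11544, plus strand), a proton-pumping subunit, had 403, 238 and 395 CPM in KO, against 538, 205 and 284 CPM in WT, a log2 fold change of 0.014 ± 0.38 (SE). mt-Nd4l (chrM:9877-10173, plus strand), which shares 7 bases and a transcript with mt-Nd4, had 65.4, 44.1 and 65.1 CPM in KO, against 84.2, 31.7 and 47.6 CPM in WT, a log2 fold change of 0.096 ± 0.36 (SE). Both genes had the same order of libraries, from WT 1 down to WT 2, and mt-Nd4l had 15.5 to 18.5 counts per 100 of mt-Nd4.

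mt-Nd5 (chrM:11742-13565, plus strand), another proton-pumping subunit, had 492, 354 and 534 CPM in KO, against 799, 313 and 395 CPM in WT, a log2 fold change of -0.13 ± 0.36 (SE). mt-Nd6 (chrM:13552-14070, minus strand), the protein gene of the light strand, had 145, 99.8 and 152 CPM in KO, against 237, 100.6 and 119 CPM in WT, a log2 fold change of -0.20 ± 0.34 (SE). These 4 genes, mt-Nd4, mt-Nd4l, mt-Nd5 and mt-Nd6, had edgeR adjusted p of 0.789 to 0.989 and overlapping groups. At least 1 omission of a single library turned the sign of each.

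The cytochrome b gene mt-Cytb (chrM:14145-15288, plus strand), the mitochondrial subunit of complex III, had 654, 399 and 691 CPM in KO, against 1043, 401 and 513 CPM in WT. WT 1 was again the highest library, and KO 2 and WT 2 were almost equal. The log2 fold change was -0.17 ± 0.39 (SE; edgeR adjusted p = 0.854).

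Of the complex IV subunits, mt-Co1 (chrM:5328-6872, plus strand), the catalytic subunit that binds heme and copper, had 1998, 1115 and 1992 CPM in KO, against 1841, 752 and 1022 CPM in WT. KO 1 and KO 3 were the highest libraries and WT 2 and WT 3 the lowest, but WT 1 lay above KO 2. Its means were 1702 ± 508 CPM in KO and 1205 ± 567 CPM in WT (SD, n = 3 each), a log2 fold change of 0.50 ± 0.37 (SE; edgeR adjusted p = 0.499). This was the highest estimate of the 13 protein genes, and leaving out single libraries gave 0.25 to 0.95, and without KO 1 and WT 1 it was 0.81 (edgeR adjusted p = 0.305).

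mt-Co2 (chrM:7013-7696, plus strand), the subunit that receives electrons from cytochrome c, had 505, 292 and 548 CPM in KO, against 631, 204 and 270 CPM in WT. mt-Co3 (chrM:8607-9390, plus strand), the third core subunit, had 591, 493 and 603 CPM in KO, against 736, 587 and 657 CPM in WT. The groups overlapped for both, although mt-Co3 had just KO 1 and KO 3 above the lowest WT library. The log2 fold changes were 0.28 ± 0.45 for mt-Co2 (SE; edgeR adjusted p = 0.773) and -0.23 ± 0.14 for mt-Co3 (SE; edgeR adjusted p = 0.393), so estimates of the complex IV genes had both signs. That of mt-Co2 was -0.0093 without WT 2 and 0.82 without KO 1 and WT 1.

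The ATP synthase genes mt-Atp8 (chrM:7766-7969, plus strand) and mt-Atp6 (chrM:7927-8607, plus strand) encode membrane subunits that are translated from a shared transcript. mt-Atp8 had 192, 168 and 194 CPM in KO, against 235, 160 and 172 CPM in WT. mt-Atp6 had 819, 766 and 875 CPM in KO, against 1106, 763 and 806 CPM in WT. The libraries followed the same order in both genes, and mt-Atp8 had 21 to 23.4 counts per 100 of mt-Atp6. The log2 fold changes were -0.036 ± 0.17 for mt-Atp8 (SE; edgeR adjusted p = 0.930), which was 0.036 with upper-quartile scaling or library sizes alone, and -0.12 ± 0.17 for mt-Atp6 (SE; edgeR adjusted p = 0.736).

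**Figure D4:**
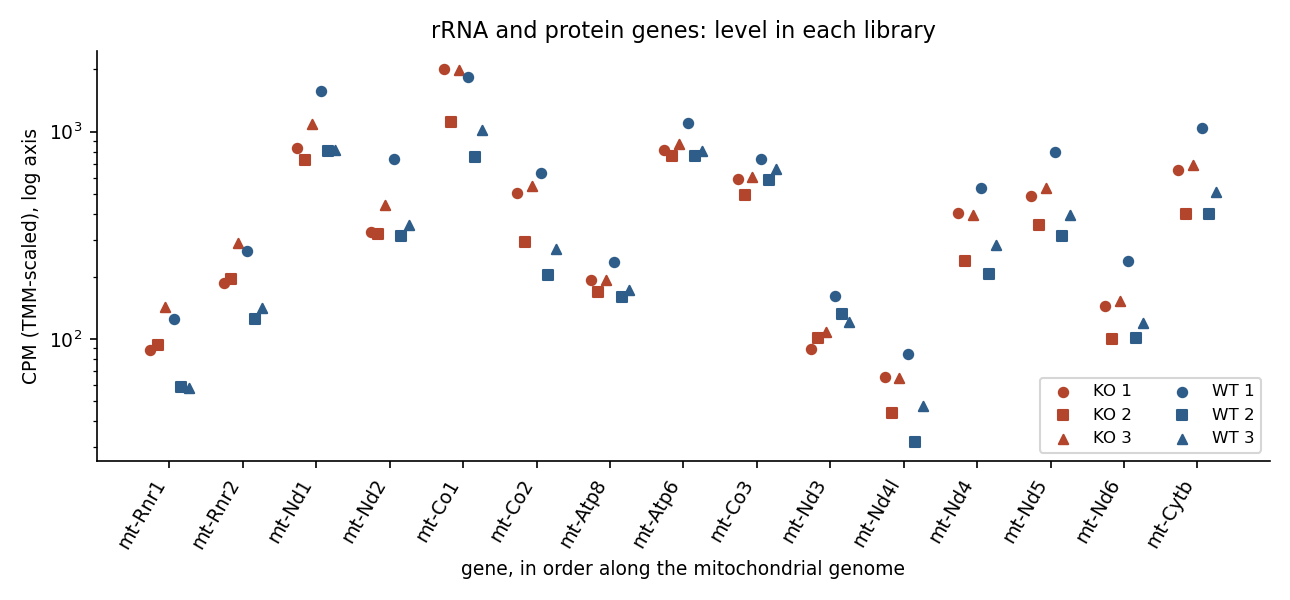
Level of the 2 rRNA and 13 protein genes in each library (y axis, TMM-scaled CPM, log), in their order along the mitochondrial genome (x axis), with KO in red left of WT in blue and a marker shape for the library number. WT 1 is the highest WT library for every gene, and the libraries lie closest together from mt-Atp8 to mt-Nd3.

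Per length, mt-Atp6 was the most abundant protein transcript, at means of 1204 CPM per kb in KO and 1309 CPM per kb in WT. The next in KO was mt-Co1, with 1101 CPM per kb in KO and 780 CPM per kb in WT, and the next in WT was mt-Nd1, with 925 CPM per kb in KO and 1113 CPM per kb in WT. The lowest per length was mt-Nd4l, with 196 CPM per kb in KO and 183 CPM per kb in WT. This order depends on how reads shared with the copies were counted. With the counts of the copies added, mt-Atp6 was still highest, mt-Co3 came next at 1431 CPM per kb in KO and 1681 CPM per kb in WT, and mt-Nd5 was lowest of the protein genes at 252 CPM per kb in KO and 275 CPM per kb in WT. The rRNA genes were below every protein gene, with 113 CPM per kb in KO and 84.4 CPM per kb in WT for mt-Rnr1, and 141 CPM per kb in KO and 112 CPM per kb in WT for mt-Rnr2. Whether the RNA was selected by its poly(A) tail or depleted of rRNA is not given in the sources used here.

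Spread between libraries differed along the genome. The neighbours mt-Atp8, mt-Atp6, mt-Co3 and mt-Nd3, a stretch chosen after its values were seen, had a highest library 1.45 to 1.82 times the lowest, and the other 9 protein genes 2.15 to 3.09 times. The 4 neighbours summed to 1691, 1528 and 1779 CPM in KO and 2240, 1641 and 1756 CPM in WT. The other 9 summed to 5425, 3592 and 5912 CPM in KO and 7480, 3126 and 3825 CPM in WT. As a share of all counts on protein genes, the 4 neighbours took 23.8%, 29.8% and 23.1% in KO and 23.0%, 34.4% and 31.5% in WT. Since the 4 were chosen for their narrow spread, their share had to be higher where the other genes were low, and nothing is read from it. Of these 4, mt-Atp6, mt-Co3 and mt-Nd3 have a near-identical copy. Of the other 9, mt-Co2, mt-Nd4l and mt-Nd4 have one that matches at 100% and had a highest library 2.63 to 3.09 times the lowest. The part of the copies in the spread was not tested.

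Set against the mitochondrial counts alone, which takes out the difference in total between libraries, 0 of the 33 genes passed the adjusted p in an edgeR fit (4.83% of all tested genes did) and 0 had an unadjusted p below 0.05. Nuclear genes in that fit carry the fluctuation of the mitochondrial counts and enter the estimated spread. For example, mt-Nd6 had shares of 1.88% ± 0.06 in KO and 2.13% ± 0.17 in WT (SD). Its log2 fold change was -0.18 ± 0.43 (SE). The fit could thus hardly call a member, and nothing is read from the 0. The shares of 3 genes are given by library. mt-Co1 made up 26.9%, 20.5% and 24.4% of mitochondrial counts in KO, against 18.1%, 15.1% and 17.6% in WT. mt-Nd1 made up 11.2%, 13.4% and 13.35% in KO, against 15.5%, 16.2% and 14.1% in WT. mt-Nd2 made up 4.42%, 5.89% and 5.41% in KO, against 7.23%, 6.31% and 6.12% in WT. Every KO library was above every WT library for mt-Co1 and below every WT library for mt-Nd1 and mt-Nd2. These are parts of one pool, so the larger share of mt-Co1 in KO lowers the shares of the other genes. Whether mt-Nd1 and mt-Nd2 separate apart from mt-Co1 was not tested. In all, 11 of the 33 tested genes had shares that did not overlap, 8 with the higher share in KO (mt-Co1, mt-Ts1, mt-Tg, mt-Th, mt-Ts2, mt-Tl2, mt-Tt and mt-Tp) and 3 with the lower (mt-Nd1, mt-Nd2 and mt-Nd6), where 10.3% of all tested genes did so on this scale. That background is not like for like, since nuclear genes scaled to the mitochondrial counts carry the fluctuation of those counts. On the library scale 30% of all tested genes did not overlap, so the 11 of 33 are given as a description.

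By complex, the complex IV genes took 43.5%, 37.1% and 40.9% of counts on protein genes in KO, against 33%, 32.4% and 34.9% in WT. The complex I genes took 33.1%, 36.9% and 36.2% in KO, against 42.5%, 39.9% and 38.4% in WT. In both, the KO and WT libraries did not overlap. The means were 40.5% ± 3.2 in KO and 33.4% ± 1.3 in WT for complex IV, and 35.4% ± 2.0 in KO and 40.2% ± 2.1 in WT for complex I (SD, n = 3 each). Differences were 7.05 percentage points for complex IV and -4.82 for complex I, each with an exact permutation p = 0.10, the smallest that 3 against 3 allows, and a Benjamini-Hochberg adjusted p = 0.27 over the 8 per-library measures tested. Without KO 1 and WT 1 they were 5.34 and -2.55 percentage points.

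The shares are parts of a whole, and mt-Co1 alone took 28.1%, 21.8% and 25.9% of counts on protein genes in KO, against 18.9%, 15.8% and 18.3% in WT. Outside mt-Co1 the complex I genes took 46.1%, 47.1% and 48.9% in KO, against 52.4%, 47.3% and 47.0% in WT, and mt-Co2 with mt-Co3 took 21.4%, 19.6% and 20.2% in KO, against 17.3%, 19.7% and 20.3% in WT. Those shares overlapped, so the separation rested on mt-Co1. Complex III (9.19%, 7.79% and 8.99% in KO, against 10.7%, 8.41% and 9.19% in WT; exact permutation p = 0.50) and complex V (14.2%, 18.2% and 13.9% in KO, against 13.8%, 19.4% and 17.5% in WT; exact permutation p = 0.70) overlapped too.

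**Figure D5:**
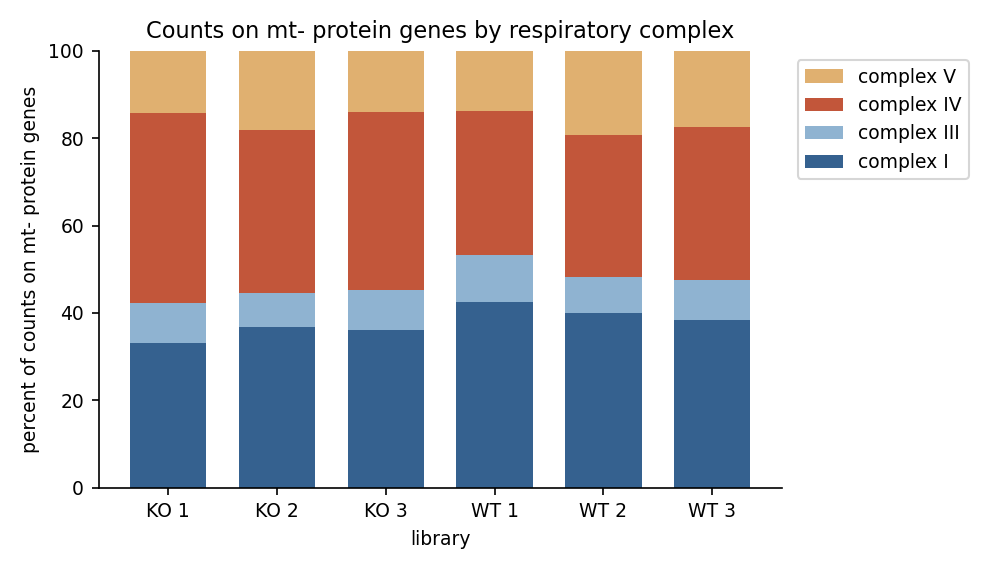
Share of counts on the 13 protein genes (y axis, percent) taken by the genes of each respiratory complex, stacked, for each library (x axis). Complex IV spans 37.1% to 43.5% in KO and 32.4% to 34.9% in WT, and complex I spans 33.1% to 36.9% in KO and 38.4% to 42.5% in WT.

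The light strand was followed through mt-Nd6. The log2 ratio of mt-Nd6 to the summed heavy-strand mRNAs was -5.59, -5.65 and -5.63 in KO, against -5.32, -5.535 and -5.52 in WT. Every KO library was below every WT library, by a mean of 0.16 on the log2 scale (exact permutation p = 0.10, the smallest possible; Benjamini-Hochberg adjusted p = 0.27 over the 8 measures), and by 0.11 without KO 1 and WT 1. With mt-Co1 left out of the heavy-strand sum the ratio was -5.10, -5.29 and -5.19 in KO, against -5.01, -5.28 and -5.22 in WT. The groups then overlapped, so this separation too rested on mt-Co1. The end of mt-Nd6 overlaps that of mt-Nd5 by 14 bases on the other strand. The library kit marks strand, but whether counting used it is not given in the sources used here, so reads of that overlap cannot be assigned.

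The tRNA genes had few counts. Of the 22, 4 averaged below 10 counts a library and were not tested, namely mt-Tf, mt-Tv, mt-Td and mt-Tk (phenylalanine, valine, aspartate and lysine), with 0 to 11 counts. Summed over all 22, the level was 50.7, 36.9 and 52.3 CPM in KO, against 65.1, 27.1 and 32.1 CPM in WT. WT 1 was highest and WT 2 lowest, as for the share on protein genes, so the groups overlapped. Of the 18 tested, 13 had estimates above 0 and 5 below, with log2 fold changes of -0.58 to 0.73 and edgeR adjusted p of at least 0.51.

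The 3 tRNA genes shown above had the most counts. mt-Ts1 (chrM:6870-6938, minus strand), a serine tRNA opposite the end of mt-Co1, had 10.9, 6.38 and 11.01 CPM in KO, against 11.2, 4.23 and 5.12 CPM in WT, a log2 fold change of 0.46 ± 0.42 (SE). It ran almost parallel to mt-Co1, at 0.5 to 0.61 counts per 100 of that gene, although the annotation has them on opposite strands with 3 bases in common. mt-Te (chrM:14071-14139, minus strand), the glutamate tRNA that adjoins mt-Nd6 on the same strand, had 10.0, 6.33 and 10.5 CPM in KO, against 18.8, 7.18 and 7.07 CPM in WT, a log2 fold change of -0.30 ± 0.44 (SE). It had 5.94 to 7.94 counts per 100 of mt-Nd6. mt-Tl1 (chrM:2676-2750, plus strand), a leucine tRNA between mt-Rnr2 and mt-Nd1, had 5.09, 4.48 and 7.16 CPM in KO, against 10.7, 3.28 and 3.28 CPM in WT, a log2 fold change of -0.045 ± 0.51 (SE) that was 0.029 with upper-quartile scaling and 0.036 with library sizes alone. For each of these tRNAs the groups overlapped, with WT 1 as the highest library of all.

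A cluster of 3 tRNA genes, mt-Th, mt-Ts2 and mt-Tl2, for histidine, serine and leucine, lies between mt-Nd4 and mt-Nd5 on the plus strand. mt-Th had 1.34, 1.52 and 1.73 CPM in KO, against 1.58, 0.439 and 0.940 CPM in WT. mt-Ts2 had 1.73, 1.73 and 2.23 CPM in KO, against 2.05, 0.462 and 0.940 CPM in WT. mt-Tl2 had 2.25, 2.44 and 3.05 CPM in KO, against 2.94, 0.577 and 1.28 CPM in WT. In all 3, WT 2 and WT 3 were below every KO library and WT 1 was within the KO range. The log2 fold changes were 0.73 ± 0.56 for mt-Ts2 and 0.69 ± 0.58 for mt-Tl2 (SE; edgeR adjusted p = 0.510 and 0.546). Without KO 1 and WT 1 they were 1.49 for mt-Ts2 and 1.55 for mt-Tl2 (edgeR adjusted p = 0.0302 and 0.0143), and mt-Ts1 at 0.89 and mt-Tl1 at 0.82 also passed (edgeR adjusted p = 0.0173 and 0.0253), in the fit that called 48% of all tested genes. With mt-Nd3 these were the 5 mitochondrial genes called among those 4 libraries.

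The plus-strand tRNA genes mt-Tg for glycine and mt-Tr for arginine flank mt-Nd3. mt-Tg had 1.24, 0.914 and 1.44 CPM in KO, against 1.66, 0.277 and 0.436 CPM in WT. mt-Tr had 0.646, 0.914 and 1.03 CPM in KO, against 0.915, 0.393 and 0.275 CPM in WT. In both, WT 2 and WT 3 were below every KO library and WT 1 was not, whereas mt-Nd3 between them was lower in every KO library. mt-Tt for threonine had 0.362, 0.305 and 0.499 CPM in KO, against 0.471, 0.162 and 0.161 CPM in WT, and mt-Tp for proline, on the minus strand beside it, had 1.03, 0.868 and 1.26 CPM in KO, against 1.14, 0.554 and 0.528 CPM in WT, again with WT 1 apart from the other WT libraries.

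Between mt-Nd1 and mt-Nd2 lie mt-Ti, mt-Tq and mt-Tm, for isoleucine, glutamine and methionine. mt-Ti had 0.233, 0.258 and 0.470 CPM in KO, against 0.887, 0.254 and 0.298 CPM in WT. mt-Tq, on the minus strand, had 0.233, 0.328 and 0.734 CPM in KO, against 0.998, 0.323 and 0.459 CPM in WT. mt-Tm had 0.465, 0.703 and 0.851 CPM in KO, against 1.33, 0.462 and 0.711 CPM in WT. As for mt-Nd1 and mt-Nd2, WT 1 was above all other libraries and the rest overlapped.

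The tRNA genes around the origin of light-strand replication varied least among those tested. mt-Tn for asparagine had 4.602, 2.65 and 2.82 CPM in KO, against 2.69, 2.47 and 3.37 CPM in WT, and mt-Tc for cysteine had 4.73, 2.46 and 2.76 CPM in KO, against 2.52, 2.68 and 3.03 CPM in WT. mt-Ta for alanine had 2.198, 1.90 and 1.497 CPM in KO, against 1.66, 1.25 and 1.996 CPM in WT, and mt-Ty for tyrosine had 2.64, 1.52 and 1.996 CPM in KO, against 1.83, 1.69 and 1.68 CPM in WT. In all 4, which lie on the minus strand, KO 1 was the highest library and WT 1 lay within the range of the other libraries. Their highest library was 1.73 to 1.92 times the lowest. The adjoining mt-Tw for tryptophan, on the plus strand, had 0.802, 0.774 and 0.646 CPM in KO, against 0.970, 0.323 and 0.436 CPM in WT, with WT 1 highest as for the mRNAs.

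Over all tRNA genes, with strands taken from the annotation, the log2 ratio of light-strand to heavy-strand counts was 1.34, 0.636 and 0.722 in KO, against 0.757, 1.595 and 1.39 in WT. Whether counting used strand is not given, and mt-Ts1 ran almost parallel to mt-Co1 on the opposite strand. It is therefore unknown whether this ratio compares the products of the strands. KO 1 lay near WT 2 and WT 3, and WT 1 near KO 2 and KO 3. The difference was -0.35, and -0.81 without KO 1 and WT 1. Its exact permutation p was 0.20, where 0.10 is the smallest possible (Benjamini-Hochberg adjusted p = 0.40 over the 8 measures).

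Of the nuclear genes that copy, transcribe, process and translate the mitochondrial genome, 131 of 133 listed were tested, and 3 were higher and 1 lower in KO, which is 3.05% against 7.4% of all tested genes. The median log2 fold change was 0.080, against 0.011 over all tested genes. Lists for mtDNA copying and packaging (15 tested), transcription (10), nuclear regulators (9), transcript tailing, stability and decay (16) and aminoacyl-tRNA synthetases (22) had 0 called genes. Tfam, which packages mtDNA and starts its transcription, had 63.6, 63.75 and 64.2 CPM in KO, against 66.8, 65.0 and 65.2 CPM in WT. Polrmt, the mitochondrial RNA polymerase, had 32.8, 53.9 and 49.3 CPM in KO, against 58.7, 51.7 and 49.8 CPM in WT. Lrpprc, which stabilizes mitochondrial mRNAs, had 90.9, 141 and 143 CPM in KO, against 160.5, 101.3 and 115.5 CPM in WT. Tfam lay in a narrow range in all 6 libraries, with every KO library slightly below every WT library, and Polrmt and Lrpprc overlapped between the groups. These genes do not stand for their lists, which also held uncalled genes whose groups did not overlap. Examples are Ppargc1b, with means of 1.75 CPM in KO and 4.16 CPM in WT, and Pnpt1, with 53.9 CPM in KO and 41.6 CPM in WT. Of all tested genes, 30% did not overlap.

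The 4 called genes acted at different steps. Oxa1l (chr14:54360834-54369673, plus strand), which inserts newly made proteins into the inner membrane, had 52.6, 53.6 and 53.6 CPM in KO, against 30.4, 30.4 and 32.05 CPM in WT. Every KO library was far above every WT library, with a log2 fold change of 0.78 (edgeR adjusted p = 0.00592), which passed under every omission of a single library. It matches Slc7a7 at 100% over 232 bases, and that gene had 26 to 89 counts in KO and 7 to 21 in WT. Coa3 (chr11:101277968-101279114, minus strand), an assembly factor of cytochrome c oxidase that in human cells binds newly made COX1, the product of MT-CO1, had 30.0, 29.8 and 26.3 CPM in KO, against 15.8, 17.7 and 16.9 CPM in WT, a log2 fold change of 0.77 (edgeR adjusted p = 0.0157). Both belong to the list of translation factors, of which 2 of 19 tested were higher and 0 lower, where 3.55% of all tested genes were higher and 3.86% lower.

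Ngrn (chr7:80261215-80265374, plus strand), which in human cells is needed for the large subunit rRNA of the mitochondrial ribosome, had 25.3, 21.45 and 22.5 CPM in KO, against 13.45, 14.5 and 12.1 CPM in WT, a log2 fold change of 0.79 (edgeR adjusted p = 0.0231). It was the 1 called gene of 23 tested for rRNA modification and ribosome assembly. Mtfmt, which formylates the initiator methionyl-tRNA, had 13.2, 14.25 and 12.8 CPM in KO, against 25.7, 22.6 and 22.6 CPM in WT, a log2 fold change of -0.81 (edgeR adjusted p = 0.0156), the 1 called gene of 20 tested for transcript cleavage and tRNA maturation. Of all tested genes 7.4% were called. Both Ngrn and Mtfmt separated the groups in all libraries. Mtfmt (chr9:65435782-65453054, plus strand) lies in the part of chromosome 9 from 55 to 75 Mb. There 71 of 125 genes averaging at least 5 CPM were called lower in KO, against 3.86% of all tested genes. The median log2 fold change of the 125 was -0.81. A change of Mtfmt alone and one of the whole stretch cannot be told apart. Coa3, Ngrn and Mtfmt each lost their call without KO 2, KO 3, WT 2 or WT 3, with edgeR adjusted p of 0.0544 to 0.108 in those fits.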

How the data were processed

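Raw counts per gene symbol were deposited by the authors, 1 table a library. Trim Galore 0.6.6, HISAT2 2.2.1 and build hg38 are named in the submitters' processing notes, although the symbols are those of the mouse. The counting program, strand setting, treatment of multiply matching reads and any batch were not given in the sources used here. RNA came from RNeasy kits and libraries from the MGIEasy directional kit, per the labels' protocols. Groups follow the sample titles, since the genotype entries of KO 2 and KO 3 name PME-2 and PME-3 knockouts.

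Gene positions, lengths and sequences were taken from GENCODE M21 (GRCm38) by symbol. Annotated copies were found with blastn 2.17.0 (at least 97% identity over at least 100 bases, mean of at least 5 CPM to be named). Gm13340 is named although its mean was below that limit.

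Genes were filtered by filterByExpr and tested with edgeR 4.0.16 (R 4.3.3; TMM, quasi-likelihood, genotype as the only term, Benjamini-Hochberg adjustment over 15223 genes, threshold 0.05). The test was checked on simulated counts. DESeq2 1.42.0 and limma-voom (limma 3.58.1) were alternatives. Library measures were compared by two-sided exact permutation tests (scipy 1.17.1), the 4 complex shares having been added after values were seen. A count of 0 allows up to 3 counts, or 0.068 to 0.0871 CPM unscaled. Every member is named, tRNA genes averaging at least 10 counts with values. Of each nuclear list, called genes averaging at least 1 CPM were named, at most 4 a list. Tfam, Polrmt, Lrpprc, Ppargc1b and Pnpt1 were not called and are named outside this rule. Members were taken by the prefix of their symbols, and the lists were chosen with earlier results of these data known.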

Additional observations from a re-analysis of the deposited data

How the results depend on the processing

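Of the mitochondrial genes, 0 were called with TMM, median-ratio, upper-quartile or no scaling factors, with scaling that left out the mitochondrial genes, with limma-voom, without the count filter, at a mean of at least 5 CPM, with the nuclear copies added, with a replicate block, or without any single library; DESeq2 called 1 and the fit without both libraries numbered 1 called 5. Calls over all genes numbered 1127, and 2406 with DESeq2, 8 with the replicate block, 7408 without both libraries numbered 1, and 332 to 1216 without single libraries, the lowest without WT 3. Libraries of the same number tended to deviate from their group means in opposite directions (correlations of -0.69, -0.51 and -0.47). KO 1 and WT 1 stood apart from their groups, which enters all of these values. Whether the numbers mark a shared preparation is not given in the sources used here. With the replicate block Ppme1 (edgeR adjusted p = 0.0518), Oxa1l, Coa3, Ngrn and Mtfmt lost their calls. The 8 per-library measures kept their sign under every alternative run, apart from the mitochondrial share, whose difference was -0.048 to 0.183 percentage points without single libraries and below 0 without KO 1, KO 3, WT 2 or WT 3.

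For the genes whose fold changes are given, 366 of 423 values under alternatives kept their direction and side of the threshold, and 35 changed sign; the cause was not tested. Without single libraries the log2 fold change ranged from -0.44 to 0.13 for mt-Nd1, -0.59 to 0.12 for mt-Nd2, -0.0093 to 0.93 for mt-Co2, -0.15 to 0.16 for mt-Atp8, -0.22 to 0.070 for mt-Atp6, -0.18 to 0.56 for mt-Nd4l, -0.25 to 0.51 for mt-Nd4, -0.38 to 0.38 for mt-Nd5, -0.43 to 0.28 for mt-Nd6, -0.42 to 0.36 for mt-Cytb, -0.54 to 0.34 for mt-Te and -0.33 to 0.77 for mt-Tl1, the highest each time without WT 1. Without both libraries numbered 1 it was 0.17 for mt-Nd1, 0.19 for mt-Nd2, 0.12 for mt-Atp8, 0.063 for mt-Atp6, 0.32 for mt-Nd5, 0.19 for mt-Nd6, 0.25 for mt-Cytb, 0.24 for mt-Te and 0.82 for mt-Tl1. mt-Atp8 was 0.036 with upper-quartile factors and 0.036 with library sizes alone, and mt-Tl1 was 0.029 with upper-quartile factors, 0.036 with library sizes alone, 0.20 with limma-voom and 0.18 with the replicate block. The median over all genes was 0.011 with TMM, 0.079 with upper-quartile factors and 0.076 with library sizes alone.

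With 3 libraries a group, the permutation tests cannot pass 0.05. The 4 tRNA genes left out by the count filter had 0 to 11 counts a library, and were not called when the filter was dropped. Unknown counting of reads that match nuclear copies or the other strand limits the levels of 7 protein genes and of overlapping genes.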
